A study of Homo sapiens with 16 samples.

Results

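Mitosis genes encode the proteins that carry a cell through chromosome condensation, spindle assembly, chromosome segregation and the final cut between the daughter cells. The set described here was a named list of 37 such genes, from the mitotic cyclins and kinases to the proteins of the cleavage furrow, taken by gene symbol and not by any measured value. A single-symbol probe set was found for 36 of the 37, out of 18239 genes on the array, and all 36 were among the 13680 genes tested. The exception was PTTG1, the gene of securin, whose probe sets were also annotated to its near-identical copies PTTG2 and PTTG3P, so no value was assigned to it.

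Total RNA of the human neuroblastoma line SK-N-SH, in which flat mesenchymal cells are known to grow among adrenergic, neuroblast-like ones, was hybridised to 1-colour Human Genome U219 arrays. The groups, with 4 arrays each, were untreated cells and 3 exposures to risperidone, an antipsychotic that blocks dopamine and serotonin receptors, at 10 µM for 6 h, 24 h and 48 h. All cells had grown for 48 h to 95% confluence before exposure. According to the treatment protocol the controls received DMSO, the solvent of the drug, at up to 1% of the volume. These controls are named untreated in the sample titles and have no stated time of harvest, and no untreated arrays are matched to the 3 exposure times. Time in culture and exposure to risperidone therefore cannot be told apart in any comparison here, including those between exposure times. The labels call the 4 arrays of a group biological replicates without saying whether they came from separate cultures. Each p-value weighs a difference of group means against the spread within the groups, estimated over all 16 arrays. Whether this spread includes that between separate cultures is therefore not known.

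Transcripts of most mitosis genes are known to build up in G2 and to fall in G1 and in resting cells, which makes their summed level a common readout of the dividing share of a culture. Their promoters often hold a cell cycle genes homology region, or CHR, and CCAAT boxes. In resting cells the DREAM complex binds the CHR and keeps these genes low, and in dividing cells complexes with B-MYB and FOXM1 act through the same element. CCAAT boxes are bound by the trimeric factor NF-Y. In an array of a bulk culture, fewer dividing cells and less RNA per dividing cell cannot be told apart.

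Promoter stretches are shown for the 5 mitosis genes of largest fall at any of the 3 times whose RefSeq window holds either element, and for CDK1 and TOP2A, which were picked after their values were seen because they moved little and hold the same elements. Each stretch is the 160 bases before the RefSeq gene start on the strand of the gene, in build GRCh38.p14. Capitals mark a CHR (TTTGAA or TTCGAA) or a CCAAT box (CCAAT), and TTCAAA and ATTGG are the same elements on the other strand. The stretches lie at chr7:36389702-36389861, plus strand (ANLN), chr1:214603035-214603194, plus strand (CENPF), chr1:197146670-197146829, minus strand (ASPM), chr1:43358821-43358980, plus strand (CDC20) and chr5:163460472-163460631, plus strand (HMMR). Those of CDK1, at the second of its 2 listed starts, and TOP2A lie at chr10:60778318-60778477, plus strand and chr17:40417897-40418056, minus strand.
ANLN: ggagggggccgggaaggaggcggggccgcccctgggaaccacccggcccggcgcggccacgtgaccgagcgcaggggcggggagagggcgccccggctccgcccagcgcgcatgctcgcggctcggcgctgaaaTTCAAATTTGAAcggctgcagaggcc
CENPF: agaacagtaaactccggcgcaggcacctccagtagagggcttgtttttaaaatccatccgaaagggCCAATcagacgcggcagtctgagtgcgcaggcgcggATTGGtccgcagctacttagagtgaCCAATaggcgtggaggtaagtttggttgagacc
ASPM: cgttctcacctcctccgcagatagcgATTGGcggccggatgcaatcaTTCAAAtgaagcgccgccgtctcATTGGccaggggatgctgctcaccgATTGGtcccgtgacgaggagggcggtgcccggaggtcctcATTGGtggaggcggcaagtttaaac
CDC20: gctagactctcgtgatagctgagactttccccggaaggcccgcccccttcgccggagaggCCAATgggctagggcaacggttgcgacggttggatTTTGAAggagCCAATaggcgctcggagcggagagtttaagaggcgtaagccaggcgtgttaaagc
HMMR: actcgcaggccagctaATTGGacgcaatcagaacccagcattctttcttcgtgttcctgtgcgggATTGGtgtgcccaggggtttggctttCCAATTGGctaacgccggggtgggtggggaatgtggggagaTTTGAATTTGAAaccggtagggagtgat
CDK1: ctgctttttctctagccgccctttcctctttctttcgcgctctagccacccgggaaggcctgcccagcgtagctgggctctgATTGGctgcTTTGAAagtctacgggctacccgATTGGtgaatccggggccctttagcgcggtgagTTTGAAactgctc
TOP2A: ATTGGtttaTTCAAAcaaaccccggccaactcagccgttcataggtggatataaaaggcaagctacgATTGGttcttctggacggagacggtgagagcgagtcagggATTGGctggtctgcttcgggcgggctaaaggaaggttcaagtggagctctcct

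The ANLN stretch holds a CHR on each strand, back to back, and no CCAAT box. The CENPF stretch holds CCAAT boxes only, and its CHR lies after the start. At the first start of CDK1, not shown, the stretch holds a CCAAT box only, and the CHR begins just outside it, at base -161. In HMMR a CCAAT box on each strand overlaps the other. In windows of 300 bases, from 250 before the start to 50 after it, searched on both strands, a CHR was found in 26 of the 36 RefSeq windows of 32 listed genes, or 72.2%, against 16.4% of the 35116 promoter windows of all genes. A CCAAT box stood in 28 windows, or 77.8%, against 34.6% of all, and both elements in 21, or 58.3%, against 6.38% of all. Of 82 windows of other mitosis genes 59.8% held a CHR, and of 39 windows of DNA replication genes 5.13%. E2F-like elements (TTTCGCGC, TTTGGCGC or TTTCCCGC) were found in 11.1% of the mitosis windows, 43.6% of the replication windows and 2.74% of all. AURKA, BIRC5, TPX2, TTK and UBE2C were not in the promoter table. Such matches are a description of letters and not of bound sites.

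**Figure D1:**
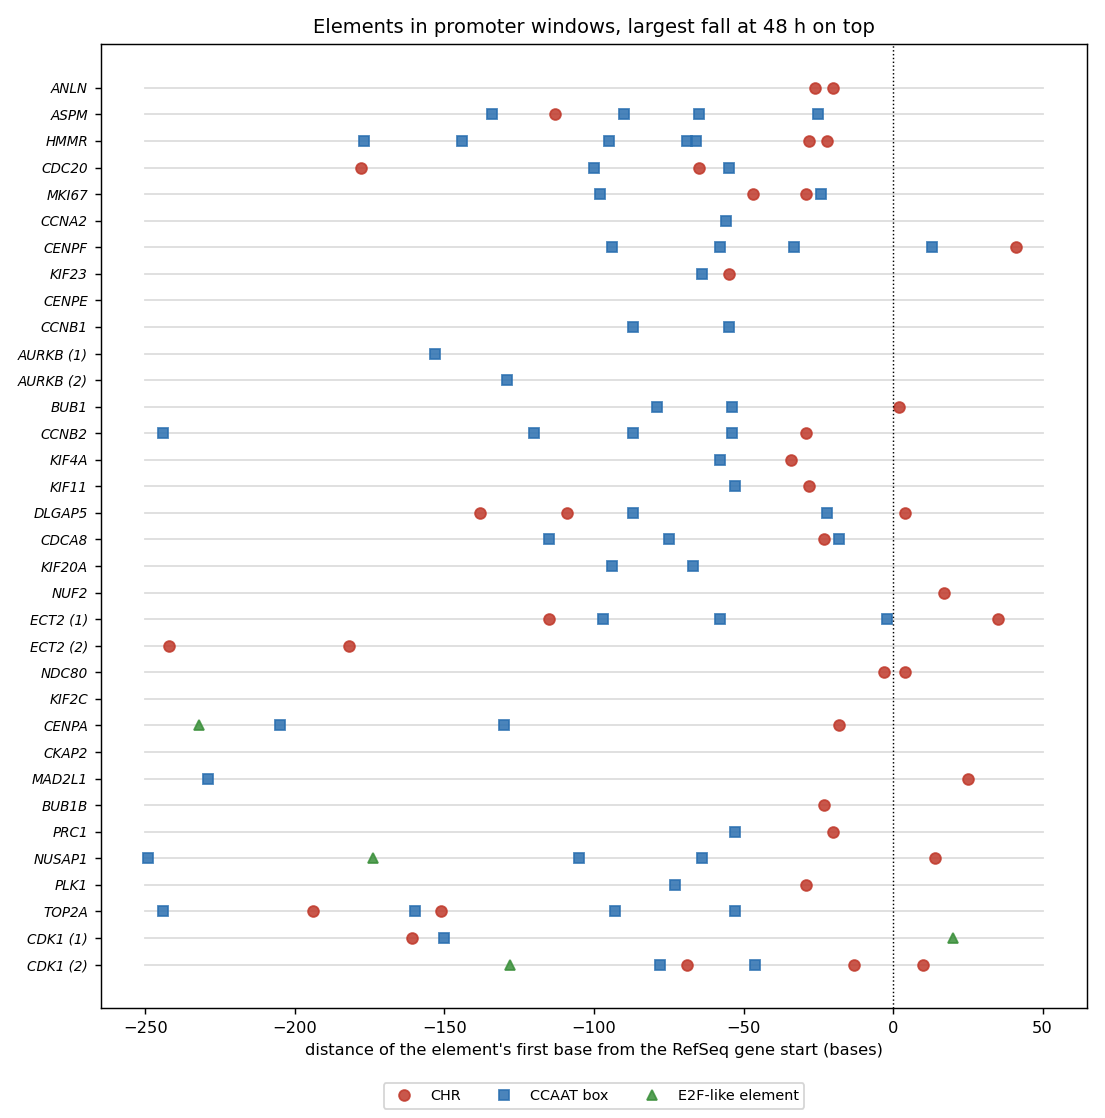
Position of each CHR (circles), CCAAT box (squares) and E2F-like element (triangles) in the RefSeq promoter windows of the mitosis genes with array values, in bases from the gene start (x axis), with the gene of largest fall at 48 h on top and a number in brackets where a gene has 2 windows. CDK1, the gene in the bottom rows, carries the elements as the genes at the top do, and CENPE, KIF2C and CKAP2 carry none.

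The values are log2 expression levels after RMA, which ran from 2.57 to 13.98, and the medians of the 16 arrays lay between 4.50 and 4.62. The untreated arrays stood apart from all others. The first principal component held 74.8% of the variance, with the untreated arrays between -50.01 and -46.29 and the risperidone arrays between 12.09 and 20.23. Of 21 tested markers of mesenchymal SK-N-SH cells, 20 were lower at 6 h than in untreated cells, with a median log2 change of -3.28, and their mean log2 level per array was 6.44 to 6.82 at 6 h, 6.72 to 6.82 at 24 h and 6.56 to 6.70 at 48 h, against 9.20 to 9.40 in untreated cells. Of 18 adrenergic markers, 17 were higher at 6 h, with a median of 0.32, and their mean level was 10.86 to 10.91 at 6 h, 10.92 to 10.94 at 24 h and 10.98 to 11.02 at 48 h, against 10.41 to 10.46 in untreated cells. Few markers of other cell types were tested: at 6 h 1 of 2 for Schwann cells, 1 of 4 for endothelial cells and 1 of 3 for leukocytes were higher, and 0, 0 and 1 lower, and of 4 for epithelial cells 0 were higher and 2 lower. Of all tested genes, 36.6% were higher and 16.7% lower at 6 h. The difference between the 3 prime and 5 prime probe sets of the actin control was 1.98 to 2.41 at 6 h, 1.94 to 2.16 at 24 h and 1.76 to 2.15 at 48 h, against 1.55 to 1.94 in untreated cells, while that of GAPDH stayed between 0.07 and 0.18. The part of these shifts in the changes of mitosis genes against untreated cells was not tested. The differences between exposure times do not include the untreated arrays, although these entered the choice of probe sets, the filter and the shared estimate of the spread.

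Mitosis genes were lower in risperidone-exposed cells than in untreated cells, and more of them at each later time. By limma at an adjusted p of 0.05, 21 of 36 were lower and 1 was higher at 6 h, against 16.7% of all tested genes lower and 36.6% higher. At 24 h 29 were lower and 0 higher, with 16.9% of all genes lower and 35.3% higher. At 48 h 32 were lower and 0 higher, with 21.0% of all genes lower and 36.0% higher. At an unadjusted p of 0.05 the higher counts at 24 h and 48 h were also 0, against 39.4% and 38.5% of all genes. The median log2 change of the 36 was -0.18 at 6 h, -0.38 at 24 h and -0.44 at 48 h, or -11.7%, -23.0% and -26.4%, while the median of all 13680 genes was 0.09, 0.09 and 0.08. All 4 exposed arrays lay below all 4 untreated arrays for 19, 23 and 29 of the 36 at the 3 times, against 14.8%, 15.2% and 17.8% of all genes, and all 4 lay above them for 0 of the 36, against 30.9%, 31.1% and 30.0% of all genes. These 3 comparisons share the untreated arrays. With cyclic loess scaling, which set the share of higher calls among all calls at 6 h to 49.4% instead of 68.7%, 26, 33 and 35 of the 36 were lower at the 3 times, against 23.6%, 23.7% and 28.2% of all genes.

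**Figure D2:**
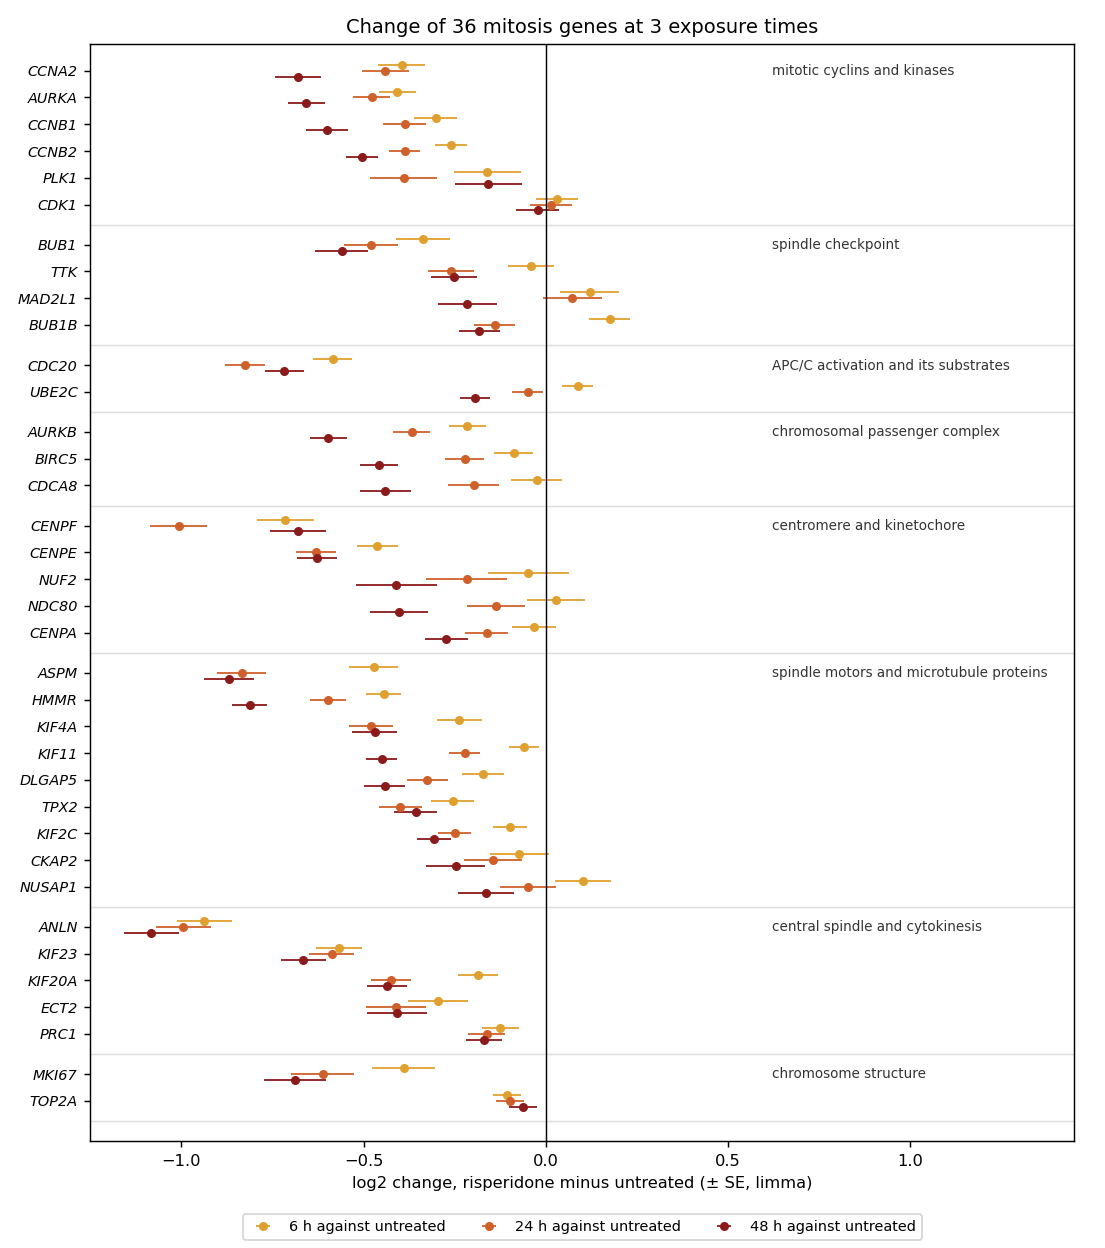
Log2 change against untreated cells (x axis, limma estimate ± SE, 4 arrays a group) of each of the 36 mitosis genes at 6 h, 24 h and 48 h, grouped by role. At 48 h all 36 points lie left of 0, from -1.08 for ANLN to -0.02 for CDK1, and at 6 h 6 points lie right of it.

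By timing, 20 genes were lower at all 3 times, 6 were lower at 24 h and 48 h but not called at 6 h (TTK, BIRC5, CDCA8, CENPA, KIF11 and KIF2C), and 5 were called lower at 48 h alone (MAD2L1, UBE2C, NDC80, NUF2 and CKAP2). CDK1 and NUSAP1 passed at none of the 3 times, and PLK1, BUB1B and TOP2A had patterns of their own. A fall of at least 1.5-fold at 48 h was measured for 12 genes, and of at least 2-fold for ANLN alone. The timing classes rest on 1 probe set per gene. The share of all genes in each class, or past each fold, was not counted.

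Among the cytokinesis proteins all 5 genes were lower at every time, and ANLN fell most of all 36 genes at 6 h and at 48 h. ANLN encodes anillin, which links actin, myosin and the membrane at the cleavage furrow. Its log2 values were 10.57, 10.74, 10.96 and 10.65 in untreated cells, 9.82, 9.84, 9.84 and 9.67 at 6 h, 9.63, 9.74, 9.80 and 9.77 at 24 h and 9.73, 9.67, 9.69 and 9.50 at 48 h. All 12 exposed arrays lay below the lowest untreated array, and the 3 exposed groups overlapped one another. The log2 change was -0.94 ± 0.08 at 6 h (adjusted p 1.7e-08), -1.0 ± 0.08 at 24 h (adjusted p 7.77e-09) and -1.08 ± 0.08 at 48 h (adjusted p 1.88e-09), the last of which is a change of -52.8% in level. KIF23, the kinesin of the centralspindlin complex that bundles midzone microtubules, measured 9.28, 9.36, 9.61 and 9.43 in untreated cells, 8.80, 8.90, 8.92 and 8.79 at 6 h, 8.76, 8.87, 8.86 and 8.84 at 24 h and 8.76, 8.81, 8.78 and 8.67 at 48 h. Here too every exposed array was below every untreated one, with log2 changes of -0.57 ± 0.06, -0.59 ± 0.06 and -0.67 ± 0.06 at the 3 times. KIF20A, a midzone kinesin, reached -0.19 ± 0.05, -0.43 ± 0.05 and -0.44 ± 0.05. ECT2, the exchange factor that activates RhoA at the furrow, reached -0.30 ± 0.08, -0.41 ± 0.08 and -0.41 ± 0.08. PRC1, which crosslinks antiparallel microtubules, moved least, with -0.13 ± 0.05, -0.16 ± 0.05 and -0.17 ± 0.05, and its exposed and untreated arrays overlapped at each time. The 6 h call of PRC1 was lost without any of untreated replicates 2, 3 and 4 or any 6 h array (adjusted p 0.0655 to 0.139).

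**Figure D3:**
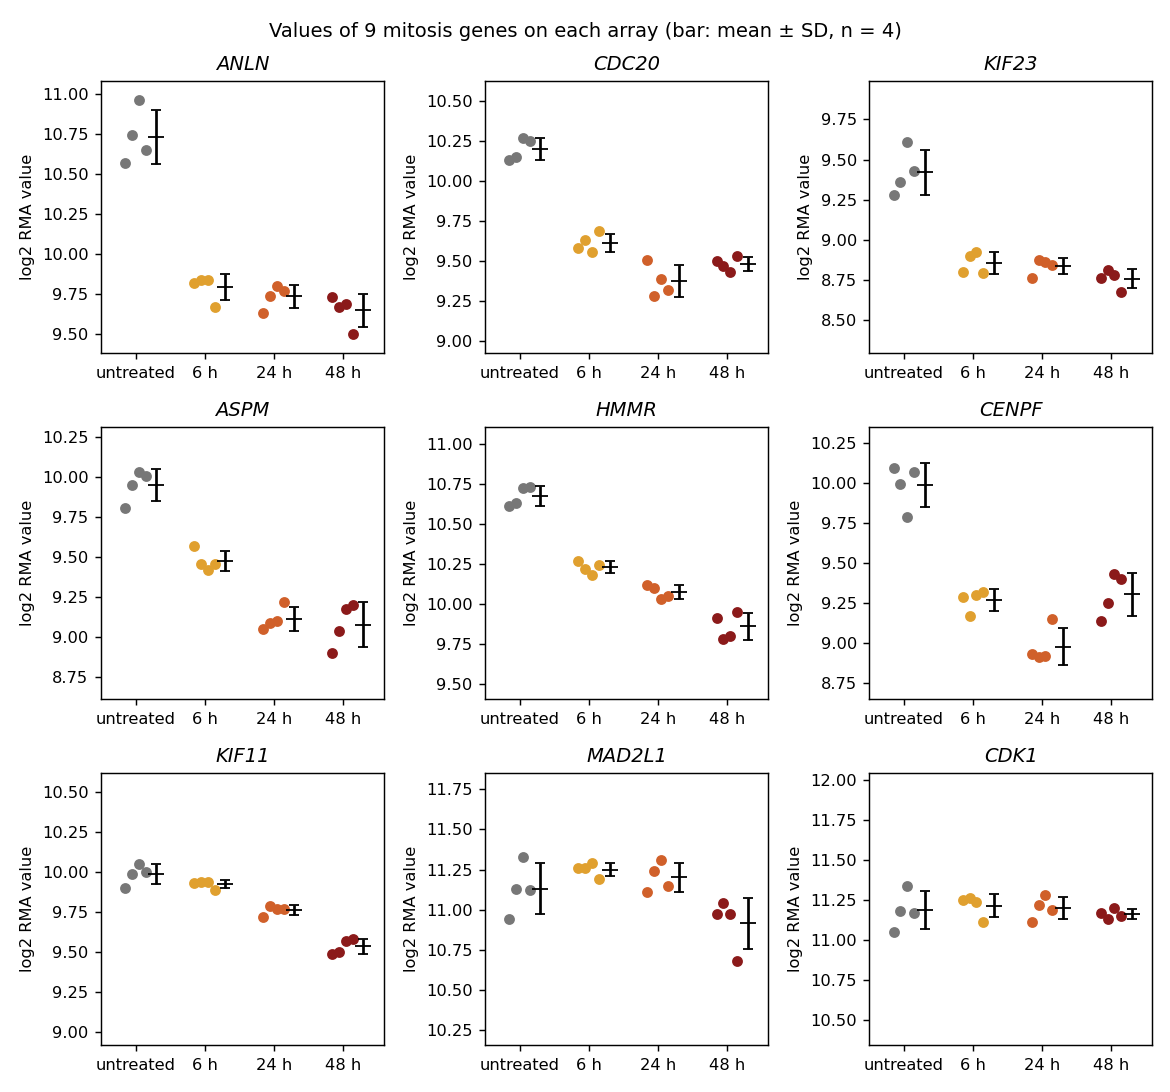
Log2 RMA value of 9 mitosis genes on each of the 16 arrays (points), with the mean ± SD of each group of 4 beside them (bars), in untreated cells and after 6 h, 24 h and 48 h of risperidone. ANLN and KIF23 are lower in every exposed group, HMMR and KIF11 step down again at 48 h, CENPF is lowest at 24 h, and the CDK1 groups overlap.

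Of the 6 mitotic cyclins and kinases, 4 were lower at every time, PLK1 at 24 h only, and CDK1 at none. CCNA2, the gene of cyclin A2, which is needed for S phase and entry into mitosis, measured 10.28, 10.35, 10.61 and 10.40 in untreated cells, 10.01, 10.09, 10.01 and 9.95 at 6 h, 9.91, 9.95, 10.04 and 9.98 at 24 h and 9.82, 9.75, 9.73 and 9.62 at 48 h. Its exposed arrays all lay under the untreated range, and the 48 h arrays also lay under those of 24 h and 6 h. The change was -0.40 ± 0.06, -0.44 ± 0.06 and -0.68 ± 0.06 at the 3 times (adjusted p 8.78e-08 at 48 h). CCNB2, one of the B-type cyclins that activate CDK1, measured 10.38, 10.33, 10.43 and 10.41 in untreated cells, 10.10, 10.14, 10.14 and 10.13 at 6 h, 9.97, 10.04, 10.0 and 9.99 at 24 h and 9.84, 9.83, 9.87 and 9.99 at 48 h. Its untreated, 6 h and 24 h arrays did not overlap, and it changed by -0.26 ± 0.04, -0.39 ± 0.04 and -0.51 ± 0.04. CCNB1, the other B-type cyclin, changed by -0.30 ± 0.06, -0.39 ± 0.06 and -0.60 ± 0.06.

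AURKA, the kinase that matures the centrosomes, measured 10.20, 10.36, 10.45 and 10.36 in untreated cells, 9.94, 9.94, 9.92 and 9.94 at 6 h, 9.85, 9.92, 9.86 and 9.83 at 24 h and 9.65, 9.68, 9.64 and 9.77 at 48 h. All exposed arrays were lower than the untreated arrays, and the change grew to -0.66 ± 0.05 at 48 h (adjusted p 6.1e-09), against -0.41 ± 0.05 at 6 h. CDK1, the kinase that these cyclins switch on, measured 11.05, 11.18, 11.34 and 11.17 in untreated cells, 11.25, 11.26, 11.24 and 11.11 at 6 h, 11.11, 11.22, 11.28 and 11.19 at 24 h and 11.17, 11.13, 11.20 and 11.15 at 48 h. Its groups overlapped throughout, it was the only one of the 36 that passed in none of the 6 contrasts, and its changes of 0.03 ± 0.06, 0.02 ± 0.06 and -0.02 ± 0.06 had adjusted p-values of 0.69, 0.845 and 0.762. The difference between CDK1 and its cyclins was not itself tested. PLK1, the kinase that acts from mitotic entry to cytokinesis, measured 5.91, 5.86, 6.10 and 6.25 in untreated cells, 5.86, 5.79, 5.97 and 5.86 at 6 h, 5.54, 5.87, 5.54 and 5.61 at 24 h and 5.88, 5.82, 5.74 and 6.05 at 48 h. It passed at 24 h, with -0.39 ± 0.09 (adjusted p 0.00176). At 6 h and 48 h it did not pass, with -0.16 ± 0.09 and -0.16 ± 0.09, and its groups overlapped at each time. This probe set of PLK1 was dim, with a mean of 5.85. Another, with a mean of 5.09, gave -0.485 at 6 h, -0.525 at 24 h and -0.495 at 48 h. The dimmest, with a mean of 3.88, gave 0.02 at 6 h, 0.04 at 24 h and -0.01 at 48 h. These other probe sets were not tested. The timing of the fall in PLK1 therefore depends on the probe set chosen.

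The 4 spindle checkpoint genes, whose proteins hold back anaphase until each kinetochore is attached, differed among themselves at 6 h and were all lower at 48 h. BUB1, a checkpoint kinase, was lower at every time, with -0.34 ± 0.07, -0.48 ± 0.07 and -0.56 ± 0.07. BUB1B, which encodes BUBR1, the inhibitor of the anaphase-promoting complex, measured 9.06, 9.25, 9.30 and 9.08 in untreated cells, 9.32, 9.30, 9.44 and 9.33 at 6 h, 9.07, 8.95, 9.05 and 9.06 at 24 h and 9.02, 9.0, 8.97 and 8.97 at 48 h. It was the only one of the 36 called higher at 6 h, at 0.18 ± 0.06 (adjusted p 0.0143), although the arrays overlapped, and it was lower at 24 h (-0.14 ± 0.06, adjusted p 0.0444) and at 48 h (-0.18 ± 0.06, adjusted p 0.00982). The 6 h call was lost without untreated replicate 1, untreated replicate 4 or 6 h replicate 3 (adjusted p 0.0508 to 0.0546), with cyclic loess and with only the 8 arrays compared. The 24 h call was lost without untreated replicate 2, untreated replicate 3 or any 24 h array (adjusted p 0.0523 to 0.147).

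MAD2L1, the gene of the MAD2 protein that captures CDC20, measured 10.94, 11.13, 11.33 and 11.12 in untreated cells, 11.26, 11.26, 11.29 and 11.19 at 6 h, 11.11, 11.24, 11.31 and 11.15 at 24 h and 10.97, 11.04, 10.97 and 10.68 at 48 h. The untreated arrays spread widely and overlapped each exposed group, and the 48 h change of -0.22 ± 0.08 (adjusted p 0.0327) was lost without any of untreated replicates 2, 3 and 4 or without 48 h replicate 4 (adjusted p 0.0535 to 0.128). Its 6 h and 24 h values of 0.12 ± 0.08 and 0.07 ± 0.08 did not pass. TTK, the kinase MPS1 that starts checkpoint signalling, gave -0.04 ± 0.06 at 6 h, which did not pass, and was lower at 24 h (-0.26 ± 0.06) and 48 h (-0.25 ± 0.06).

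CDC20, which activates the anaphase-promoting complex at the start of anaphase, measured 10.13, 10.15, 10.27 and 10.25 in untreated cells, 9.58, 9.63, 9.56 and 9.69 at 6 h, 9.51, 9.28, 9.39 and 9.32 at 24 h and 9.50, 9.47, 9.43 and 9.53 at 48 h. All exposed arrays were under the untreated arrays, and the 24 h arrays were also under the 6 h arrays. The change was -0.59 ± 0.05 at 6 h, -0.83 ± 0.05 at 24 h (adjusted p 1.14e-09) and -0.72 ± 0.05 at 48 h. UBE2C, the ubiquitin-conjugating enzyme that works with that complex, passed only at 48 h, with -0.20 ± 0.04 (adjusted p 0.000673). Its 6 h value of 0.09 ± 0.04 (adjusted p 0.088) became a rise without untreated replicate 3, at 0.11 and an adjusted p of 0.0405.

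The chromosomal passenger complex, which corrects faulty kinetochore attachments and later moves to the midzone, was represented by AURKB, BIRC5 and CDCA8. AURKB, its kinase, measured 9.03, 8.98, 9.07 and 9.10 in untreated cells, 8.78, 8.78, 8.87 and 8.89 at 6 h, 8.71, 8.70, 8.62 and 8.68 at 24 h and 8.35, 8.48, 8.40 and 8.56 at 48 h. No groups overlapped and each later one was lower, with changes of -0.22 ± 0.05, -0.37 ± 0.05 and -0.60 ± 0.05 (adjusted p 2.25e-08 at 48 h). CDCA8, the gene of borealin, measured 7.59, 7.88, 8.0 and 7.77 in untreated cells, 7.78, 7.76, 7.78 and 7.82 at 6 h, 7.61, 7.60, 7.65 and 7.59 at 24 h and 7.34, 7.28, 7.34 and 7.52 at 48 h. Its 6 h arrays lay within the untreated range while all 48 h arrays lay under it, and the changes were -0.03 ± 0.07 (not passed), -0.20 ± 0.07 and -0.44 ± 0.07. BIRC5, the gene of survivin, gave -0.09 ± 0.05, which did not pass, -0.22 ± 0.05 and -0.46 ± 0.05. The other 11 probe sets of BIRC5 ran from -0.365 to 0.08 at 6 h, and were not tested one by one. The brightest of them, with a mean of 9.80, gave -0.21 at 6 h, -0.32 at 24 h and -0.61 at 48 h. The size of its 6 h change therefore depends on the probe set chosen. The 24 h call of CDCA8 was lost without untreated replicate 2 or 3 or 24 h replicate 2 or 4 (adjusted p 0.0538 to 0.0982), and that of CENPA without the same 4 arrays (adjusted p 0.0546 to 0.0934).

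At the centromere and kinetochore, CENPE and CENPF were lower at every time, and CENPA, NDC80 and NUF2 were not called at 6 h. CENPF, a large kinetochore and nuclear matrix protein of G2 and mitosis, measured 10.09, 9.99, 9.79 and 10.07 in untreated cells, 9.29, 9.17, 9.30 and 9.32 at 6 h, 8.93, 8.91, 8.92 and 9.15 at 24 h and 9.14, 9.25, 9.43 and 9.40 at 48 h. All exposed arrays were under the untreated range, and the 24 h change was the largest of the 36 genes at that time, at -1.01 ± 0.08 (adjusted p 9.91e-09), against -0.72 ± 0.08 at 6 h and -0.68 ± 0.08 at 48 h. CENPE, the kinetochore kinesin that carries chromosomes to the spindle equator, measured 8.87, 8.91, 8.85 and 8.92 in untreated cells, 8.49, 8.38, 8.44 and 8.39 at 6 h, 8.29, 8.18, 8.25 and 8.31 at 24 h and 8.09, 8.25, 8.35 and 8.35 at 48 h. Its changes were -0.46 ± 0.06, -0.63 ± 0.06 and -0.63 ± 0.06, with no exposed array in the untreated range.

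NDC80, a subunit of the complex that binds microtubules at the kinetochore, measured 9.19, 9.16, 9.35 and 9.09 in untreated cells, 9.14, 9.26, 9.40 and 9.10 at 6 h, 8.94, 9.10, 9.15 and 9.05 at 24 h and 8.80, 8.90, 8.88 and 8.60 at 48 h. The 6 h and 24 h arrays overlapped the untreated arrays and did not pass, with 0.03 ± 0.08 and -0.14 ± 0.08, whereas all 48 h arrays were lower, with -0.40 ± 0.08 (adjusted p 0.000326). NUF2, its partner in the same complex, gave -0.05, -0.22 and -0.41 ± 0.11, of which the 48 h value passed, and its 24 h value passed without untreated replicate 1 (adjusted p 0.0487). CENPA, the histone H3 variant that marks centromeres, gave -0.03, -0.16 ± 0.06 and -0.27 ± 0.06, of which the last pair passed.

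Among 9 spindle motors and microtubule proteins, 5 were lower at 6 h, 7 at 24 h and 8 at 48 h. ASPM, which focuses the spindle poles, measured 9.81, 9.95, 10.03 and 10.01 in untreated cells, 9.57, 9.46, 9.42 and 9.46 at 6 h, 9.05, 9.09, 9.10 and 9.22 at 24 h and 8.90, 9.04, 9.18 and 9.20 at 48 h. Untreated, 6 h and 24 h arrays did not overlap, and the change was -0.47 ± 0.07 at 6 h, -0.84 ± 0.07 at 24 h and -0.87 ± 0.07 at 48 h (adjusted p 8.05e-09). HMMR, a hyaluronan receptor that also sits on spindle microtubules, measured 10.61, 10.63, 10.72 and 10.73 in untreated cells, 10.27, 10.22, 10.18 and 10.24 at 6 h, 10.12, 10.10, 10.03 and 10.05 at 24 h and 9.91, 9.78, 9.80 and 9.95 at 48 h. Every later group lay wholly under the one before it, and the change reached -0.81 ± 0.05 at 48 h (adjusted p 2.36e-10), with -0.45 ± 0.05 at 6 h and -0.60 ± 0.05 at 24 h.

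KIF4A, a chromosome-bound kinesin, changed by -0.24 ± 0.06, -0.48 ± 0.06 and -0.47 ± 0.06. TPX2, which activates AURKA on the spindle, changed by -0.26 ± 0.06, -0.40 ± 0.06 and -0.36 ± 0.06. DLGAP5, a kinetochore fibre protein, changed by -0.17 ± 0.06, -0.33 ± 0.06 and -0.44 ± 0.06, and its 6 h call was lost without untreated replicate 3 or 6 h replicate 4 (adjusted p 0.0653 and 0.0704). KIF11, the motor that pushes the spindle poles apart, and KIF2C, a microtubule depolymerase, did not pass at 6 h, at -0.06 and -0.10. KIF11 was lower, at -0.22 ± 0.04 at 24 h and -0.45 ± 0.04 at 48 h. KIF2C was lower, at -0.25 ± 0.05 and -0.31 ± 0.05. CKAP2, a spindle-associated protein, passed at 48 h alone, at -0.25 ± 0.08 (adjusted p 0.0145), a call that was lost without untreated replicate 3 (adjusted p 0.0559). Its difference of 48 h against 6 h, at -0.175 ± 0.08, did not pass (adjusted p 0.108). NUSAP1, a protein that stabilises spindle microtubules, passed at no time, with 0.10, -0.05 and -0.17, and its 48 h value passed without 48 h replicate 3 (adjusted p 0.0145).

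TOP2A and MKI67 act on chromosome structure and gave unlike sizes of change. TOP2A, the topoisomerase that untangles sister chromatids, measured 11.44, 11.45, 11.36 and 11.44 in untreated cells, 11.30, 11.29, 11.34 and 11.33 at 6 h, 11.37, 11.30, 11.28 and 11.35 at 24 h and 11.35, 11.37, 11.34 and 11.38 at 48 h. The changes were small, at -0.11 ± 0.04 (adjusted p 0.0271), -0.10 ± 0.04 (adjusted p 0.0432) and -0.06 ± 0.04 (adjusted p 0.18), and the 6 h and 24 h calls were lost without any of several single arrays (adjusted p 0.054 to 0.124). For the 6 h call these were untreated replicates 2 and 4 and 6 h replicates 1 and 2, and for the 24 h call untreated replicates 1, 2 and 4 and 24 h replicates 2, 3 and 4. MKI67, which encodes the proliferation marker Ki-67 that coats mitotic chromosomes, changed by -0.39 ± 0.09, -0.61 ± 0.09 and -0.69 ± 0.09, and all its exposed arrays lay under the untreated ones.

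At 48 h against 6 h, 25 of 36 mitosis genes were lower and 0 higher, against 17.0% of all genes lower and 16.7% higher, with a median log2 change of -0.25 for the 36 and -0.005 for all genes. At an unadjusted p of 0.05, 27 were lower and 0 higher, against 21.7% and 20.9% of all genes. All 4 arrays of 48 h lay below all 4 of 6 h for 25 of 36 genes, against 16.6% of all genes. Over the same interval the 21 mesenchymal markers had 5 lower, 5 higher and a median change of 0.05, and the 18 adrenergic markers had 1 lower, 7 higher and a median of 0.08.

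The largest differences of 48 h against 6 h were those of NDC80, at -0.43 ± 0.08 (adjusted p 0.000541), CDCA8, at -0.42 ± 0.07 (adjusted p 0.000254), ASPM, at -0.40 ± 0.07, KIF11, at -0.39 ± 0.04, and AURKB, at -0.38 ± 0.05. Of the 25, 11 had not been called at 6 h, 13 had already been lower at 6 h, and the remaining gene, BUB1B at -0.36 ± 0.06, had been higher. Of the genes lower at 6 h, 8 were not called between 6 h and 48 h, and they include ANLN (-0.15 ± 0.08, adjusted p 0.157), KIF23 (-0.10 ± 0.06, adjusted p 0.252) and CENPF (0.04 ± 0.08, adjusted p 0.775). The other 5 of these were CDC20, TPX2, PRC1, ECT2 and TOP2A. NUSAP1, called at no time against untreated cells, was lower at 48 h than at 6 h, at -0.27 ± 0.08 (adjusted p 0.0127). Leaving out single arrays ended the calls of BUB1 (6 h replicates 1, 2 and 3 and 48 h replicates 1, 2 and 3), CENPE (6 h replicates 1 and 3 and 48 h replicates 1 and 2), NUF2 (6 h replicates 2 and 3 and 48 h replicate 4) and MKI67 (48 h replicate 1), at adjusted p-values of 0.0501 to 0.113, and made CKAP2 pass without 6 h replicate 4 (adjusted p 0.0458).

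By limma at an adjusted p of 0.05, 0 genes were called lower both from 6 h to 24 h and from 24 h to 48 h. Both steps use the 24 h arrays. For CCNB1, UBE2C, AURKB, BIRC5, CDCA8, KIF11 and HMMR, all 4 later arrays lay below all 4 earlier ones in both steps. The shares of all genes that were so in both steps were not counted, and whether a gene's 2 steps differed was not tested. From 6 h to 24 h 5 genes were lower and 0 higher, against 0.855% of all genes lower and 1.55% higher, and the median of the 36 was -0.15. At an unadjusted p of 0.05 the counts were 21 lower and 0 higher, against 5.72% and 8.13% of all genes. All 4 arrays of 24 h lay below all 4 of 6 h for 20 of 36 genes, against 4.80% of all genes. The 5 were ASPM (-0.36 ± 0.07, adjusted p 0.0083), BUB1B (-0.32 ± 0.06, adjusted p 0.00562), CDC20 (-0.24 ± 0.05, adjusted p 0.0242), KIF4A (-0.24 ± 0.06, adjusted p 0.0464) and KIF20A (-0.24 ± 0.05, adjusted p 0.0264). Leaving out any of the 8 arrays left 2 or 3 of the 36 lower. The calls lost were those of KIF4A, KIF20A and CDC20, at adjusted p-values of 0.0501 to 0.138, and CENPF passed without 24 h replicate 4 (adjusted p 0.0364).

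From 24 h to 48 h 11 genes were lower and 1 higher, against 15.1% of all genes lower and 13.5% higher, with a median of -0.08 for the 36 and -0.01 for all genes. All 4 arrays of 48 h were below all 4 of 24 h for 12 of 36, against 16.1% of all genes, and above them for 0, against 14.3% of all genes. The 11 were CCNA2, CCNB1, AURKA, MAD2L1, UBE2C, AURKB, BIRC5, CDCA8, NDC80, KIF11 and HMMR, from -0.29 for MAD2L1 to -0.15 for UBE2C. None of them was among the 5 called lower from 6 h to 24 h. All 3 listed genes of the chromosomal passenger complex were in this group, and none of the 5 cytokinesis genes was. AURKB gave -0.23 ± 0.05 (adjusted p 0.00259), CDCA8 -0.24 ± 0.07 and BIRC5 -0.24 ± 0.05. INCENP, a subunit of that complex outside the list of 36, did not pass, at 0.035 ± 0.09 (adjusted p 0.828). Its probe set was dim, with a mean of 5.07. CENPF rose, at 0.33 ± 0.08 (adjusted p 0.00459), although its arrays overlapped. PLK1 gave 0.23 ± 0.09 (adjusted p 0.0677) and passed as higher without 24 h replicate 2 or 48 h replicate 3 (adjusted p 0.0181 and 0.0487), as CDC20 did without 24 h replicate 1 (adjusted p 0.0444). The other 2 probe sets of PLK1 gave 0.03 and -0.05 for this step, and those of CDC20 gave -0.0075 and -0.14. NDC80 was not called without 24 h replicate 3 or 48 h replicate 4 (adjusted p 0.0599 and 0.0627), CDCA8 without 48 h replicate 2 (adjusted p 0.0524), and CCNB2 became lower without 48 h replicate 4 (adjusted p 0.00853).

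**Figure D4:**
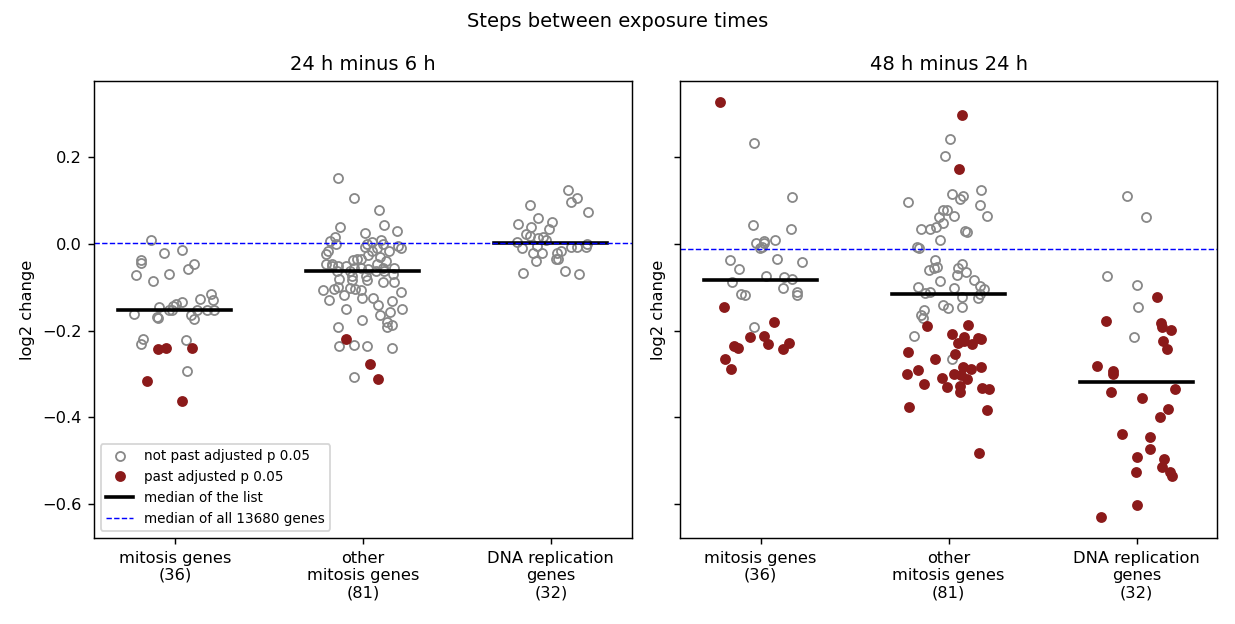
Log2 change of each gene from 6 h to 24 h (left) and from 24 h to 48 h (right) for the 36 mitosis genes, 81 other mitosis genes and 32 DNA replication genes, with genes past an adjusted p of 0.05 filled, the median of each list as a black bar and the median of all 13680 genes as a dashed line. The median of the DNA replication genes lies at 0.0025 in the left panel and at -0.32 in the right one, where 26 of 32 passed as lower.

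The other probe sets of these genes mostly pointed the same way. A further 58 probe sets covered 24 of the 36 genes, and 44 of them were lower at 6 h and 53 lower at 48 h than in untreated cells in sign, with a median of -0.36 at 48 h. At 48 h against 6 h 50 of the 58 were lower in sign, with a median of -0.22. The other 3 for ANLN ran from -1.21 to -1.13 at 48 h. CENPF had 1 other, which gave -0.93 at 24 h and -0.59 at 48 h. Those of MKI67 ran from -2.0 to -0.68 at 48 h and those of CDK1 from -0.09 to 0.0025, while those of CKAP2 disagreed with each other, from -0.28 to 0.36. The other 4 for CKAP2 were already lower in sign at 6 h, from -0.24 to -0.215, and at 24 h, from -0.30 to -0.23. Its brightest probe set gave -0.07 and -0.145 at these times. The call of CKAP2 at 48 h alone therefore depends on the probe set chosen.

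Other genes of the same steps, chosen as known mitosis genes, were also mostly lower where they passed. Of 81 such genes, 30 were lower and 11 higher at 6 h against untreated cells, with a median of -0.06, against 16.7% of all genes lower and 36.6% higher. With cyclic loess 42 were lower and 2 higher, against 23.6% and 23.0% of all genes. At 48 h 52 were lower and 2 higher, with a median of -0.27, against 21.0% and 36.0% of all genes. From 6 h to 24 h 3 were lower and 0 higher, against 0.855% and 1.55% of all genes, and at an unadjusted p of 0.05 the counts were 17 and 0, against 5.72% and 8.13%. From 24 h to 48 h 30 were lower and 2 higher, against 15.1% and 13.5% of all genes. KIF14, a kinesin of cytokinesis, changed by -0.46 ± 0.06, -0.61 ± 0.06 and -0.72 ± 0.06 at the 3 times. BORA, the activator of AURKA in the phosphorylation of PLK1, changed by -0.45 ± 0.05, -0.58 ± 0.05 and -0.66 ± 0.05. Among 15 subunits and activators of the anaphase-promoting complex, 3 were higher and 2 lower at 6 h, against 36.6% and 16.7% of all genes, and 0 were higher and 5 lower with cyclic loess. ANAPC1, its largest subunit, changed by -0.26 ± 0.05 at 6 h, while CDC16, another subunit, gave 0.04 ± 0.04 at 6 h, which did not pass, and was higher by 0.22 ± 0.04 at 48 h.

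Of 23 transcription regulators of mitosis genes, 7 were higher and 3 lower at 6 h, which is not above the 36.6% and 16.7% of all genes, and with cyclic loess 5 were higher and 7 lower. Between 24 h and 48 h 3 were higher and 9 lower, against 13.5% and 15.1% of all genes. FOXM1, the forkhead factor that activates G2 and mitosis genes, gave -0.06 and -0.10, which did not pass, and was lower at 48 h, at -0.27 ± 0.07 (adjusted p 0.00428). MYBL2, the gene of B-MYB, was higher at 6 h and 24 h, by 0.31 ± 0.06 and 0.29 ± 0.06, and gave 0.04 ± 0.06 at 48 h, which did not pass. E2F1, an activator of S phase genes, was higher by 0.18 ± 0.07 at 6 h and gave -0.03 ± 0.07 at 48 h, which did not pass. The largest falls were those of MYBL1, the gene of A-MYB, at -1.15 ± 0.08, -0.98 ± 0.08 and -1.22 ± 0.08, and of E2F7, a repressor of E2F targets, at -0.89 ± 0.10, -0.96 ± 0.10 and -1.79 ± 0.10 (adjusted p 6.61e-11).

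Of 6 tested CDK inhibitors, 3 were higher and 3 lower at 6 h, against 36.6% and 16.7% of all genes. CDKN1C, which encodes p57, was higher by 0.98 ± 0.06, 1.13 ± 0.06 and 1.41 ± 0.06 (adjusted p 7.16e-12 at 48 h). CDKN1B, which encodes p27, was higher by 0.33 ± 0.07, 0.20 ± 0.07 and 0.21 ± 0.07. CDKN1A, which encodes p21 and is a target of p53, was lower, at -1.04 ± 0.09, -0.89 ± 0.09 and -1.21 ± 0.09. Of 9 G1 cyclins and kinases, 3 were higher and 1 lower at 6 h, which is not above the 36.6% and 16.7% of all genes, and 1 was higher and 6 lower from 24 h to 48 h, against 13.5% and 15.1%. CCNE1, the gene of cyclin E1, was higher by 0.38 ± 0.06 at 6 h and 0.56 ± 0.06 at 24 h, and lower at 48 h than at 24 h, at -0.68 ± 0.06 (adjusted p 6.37e-07). CDK2, its kinase partner, gave -0.05 and -0.09, which did not pass, and was lower at 48 h, at -0.56 ± 0.05. CCND1, the gene of cyclin D1, was higher at 6 h by 0.12 ± 0.05 and gave -0.11 ± 0.05 at 48 h (adjusted p 0.0612).

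DNA replication genes followed another course than the mitosis genes in these counts, and the difference between the lists was not tested. Against untreated cells 6 of 32 were higher and 2 lower at 6 h (1 higher and 4 lower with cyclic loess), against 36.6% and 16.7% of all genes, and 2 were higher and 20 lower at 48 h, against 36.0% and 21.0%. From 6 h to 24 h 0 passed in either direction by limma, with 1 higher and 0 lower at an unadjusted p of 0.05, against 8.13% and 5.72% of all genes. Between 24 h and 48 h 26 were lower and 0 higher, against 15.1% and 13.5% of all genes, with 27 and 0 at an unadjusted p of 0.05, against 20.6% and 17.9%. TK1, the thymidine kinase of S phase, was lower at each time, at -0.30 ± 0.06, -0.28 ± 0.06 and -0.91 ± 0.06. CDC6, which loads the replicative helicase, was higher by 0.17 ± 0.05 at 6 h and 0.16 ± 0.05 at 24 h and lower, at -0.44 ± 0.05 at 48 h (adjusted p 1.31e-06).

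**Figure D5:**
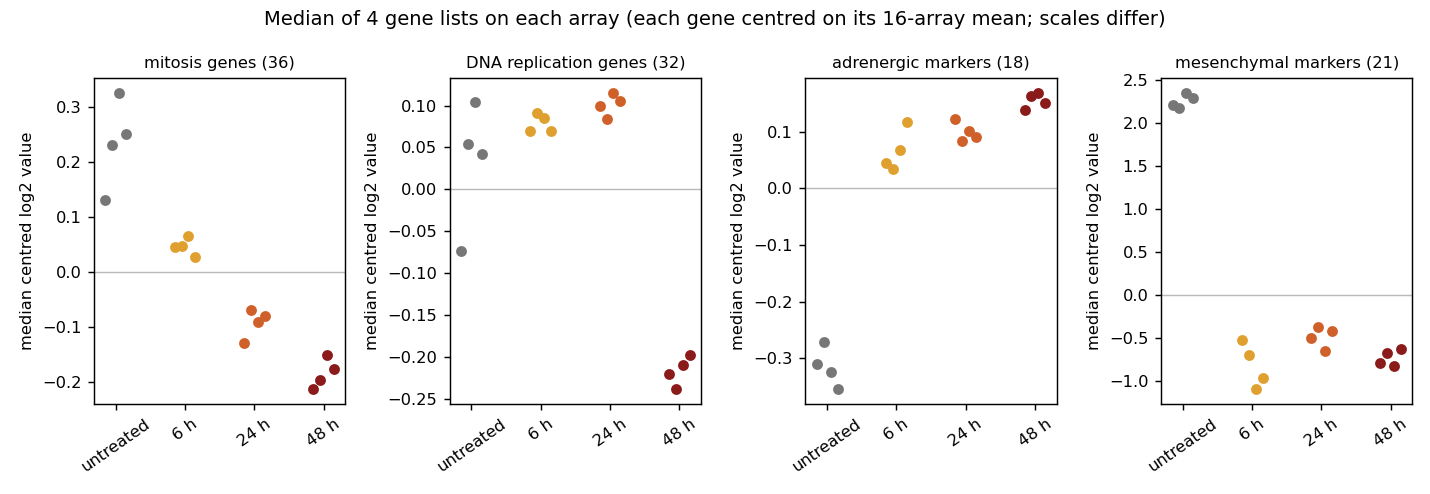
Median over the genes of a list of the log2 value centred on each gene's mean over 16 arrays (y axis, scales differ), for each array of untreated cells and of 6 h, 24 h and 48 h of risperidone. The mitosis medians step down without overlap, from 0.13 to 0.33 in untreated arrays, 0.03 to 0.07 at 6 h, -0.13 to -0.07 at 24 h and -0.21 to -0.15 at 48 h, while the DNA replication medians lie between -0.07 and 0.11 up to 24 h and between -0.24 and -0.20 at 48 h.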

How the data were processed

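The deposited table holds log2 expression values per probe set of the U219 array, made by the authors with RMA per the submitters' processing notes, and the software version is not given in the sources used here. RMA equalises the arrays' distributions, so a change in total RNA per cell cannot be seen. Probe sets were named from the platform annotation where it gave a single symbol. Each gene was represented by its probe set of highest mean over 16 arrays, and the lowest 25% of 18239 genes were left out, which kept 13680 with a mean of at least 3.65.

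The test was limma (version 3.58.1, under R 4.3.3), two-sided, with lmFit and eBayes on a model of 4 group means that took in all 16 arrays. Benjamini-Hochberg adjustment ran per contrast, with a threshold of 0.05. Values after ± are standard errors unless given as SD, and n = 4 arrays a group limits the precision. The list of mitosis genes, the other gene lists and the tests were chosen with earlier results of these data known, and lists are described by counts and medians without a test. Array values were written out for genes past the threshold at all 3 times and among the 12 of smallest moderated F p, for the largest changes (2 in each direction) of each contrast, and for genes that passed in none. Of each other list the 2 genes of smallest p were named, with FOXM1, MYBL2, E2F1, CCND1, CDKN1A, CDKN1B and CDKN1C. INCENP was named after its values were seen. The replicate numbers did not pair the arrays: correlations of the deviations of same-numbered arrays ran from -0.15 to 0.18. On values simulated for the 6 h contrast, with 13680 genes, the fit recovered 64% of genes changed by 1.25-fold and all (100%) of those at 1.5-fold, and 13 of its 195 calls were false. The simulation changed 200 genes, whereas 5008 genes were called higher and 2283 lower at 6 h in the data. The adjusted threshold depends on that share, so these rates need not hold for the data. Alternatives averaged the probe sets of a gene, and took other filters and scalings, eBayes with trend and robust options, the 8 arrays compared alone, the replicate number as a block and each array left out. A fit without the untreated arrays was added after seeing the data. Promoter sequences are from RefSeq, GRCh38.p14.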

Additional observations from a re-analysis of the deposited data

Results flagged for a closer look

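The 36 mitosis genes gave 144 sets of 4 arrays. Of these sets, 12 (8.33%) held an array whose gap to the other 3 was most of the set's range. At 6 h these were CDK1 at 11.11, AURKA at 9.92, TPX2 at 9.72 and ANLN at 9.67. At 24 h they were BUB1B at 8.95, CENPF at 9.15, CKAP2 at 9.62, KIF20A at 9.11 and ECT2 at 9.09, and at 48 h KIF20A at 9.27. In untreated cells they were NUSAP1 at 10.21 and TOP2A at 11.36. The gap was relative to the range and could be small, as for AURKA at 6 h, at 9.92 against 9.94 on the other 3 arrays. Chance gives about 1 in 20 for unrounded values, but these were rounded and tied in places, so the shares cannot be compared. The effect against untreated cells differed between exposure times, by the limma contrast of the times, for 25 genes between 48 h and 6 h, 12 between 48 h and 24 h, and 5 between 24 h and 6 h. These are the contrasts described above and no separate result. Of all genes, 17.0% were lower and 16.7% higher in the first, 15.1% and 13.5% in the second, and 0.855% and 1.55% in the third.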

How the results depend on the processing

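Over 3780 values of single mitosis genes under the alternatives, 3601 kept their side of the threshold, 107 lost significance and 72 gained it. Of values that passed in the main fit or the alternative, 0 changed direction. Changes of direction in values that passed in neither fit were not counted. The counts of genes lower against untreated cells stayed within 1.5 times, at 19 to 21, 25 to 29 and 30 to 33 over the arrays left out. The 1 gene higher at 6 h became 2 with array medians subtracted, 0 with cyclic loess, 2 with trend and robust options, 0 with only the 8 arrays compared, and 0 to 2 over the arrays left out. From 6 h to 24 h 5 genes lower became 8 with trend and robust options, 9 with only the 8 arrays, 8 without the untreated arrays and 2 to 3 over the arrays left out. From 24 h to 48 h the 1 higher became 2 with the lowest 50% of genes left out or without the untreated arrays, and 1 to 2 over the arrays left out. With the replicate block the lower counts were 20, 30 and 33 against untreated cells, and 4, 11 and 26 from 6 h to 24 h, 24 h to 48 h and 6 h to 48 h. At 24 h and 48 h against untreated cells the higher share of all calls was 67.6% and 63.1%, against 49.5% and 49.0% with cyclic loess. From 6 h to 24 h 64.4% of all calls were higher, against 47.5% with the mean of probe sets. Other mitosis genes: higher at 6 h, 11 became 2 (cyclic loess), 6 (8 arrays), 7 (quantile again) and 5 to 13 over the arrays left out, and 30 lower became 19 to 33. Their 3 lower from 6 h to 24 h became 5 (array medians, cyclic loess, stricter filter, quantile again), 6 (mean of probe sets, without untreated arrays) and 1 to 3 over the arrays left out. Their 2 higher from 24 h to 48 h became 4 (cyclic loess, stricter filter), 1 (no filter, quantile again) and 1 to 2 over the arrays left out, and their 2 higher at 48 h became 1 (mean of probe sets). DNA replication genes: 6 higher at 6 h became 12 (array medians), 1 (cyclic loess), 10 (trend and robust, mean of probe sets) and 5 to 11 over the arrays left out, 2 lower became 4 (cyclic loess), and 0 higher from 24 h to 48 h became 1 (mean of probe sets, without untreated arrays). Subunits of the anaphase-promoting complex at 6 h: 3 higher became 0 and 2 lower became 5 (cyclic loess). From 24 h to 48 h, their 2 lower became 4 (array medians), 1 (mean of probe sets) and 1 to 3 over the arrays left out, and their 3 higher 1 to 3. With cyclic loess the regulators lower at 6 h became 7 and the G1 genes 3. From 24 h to 48 h, over the arrays left out, CDK inhibitors lower were 1 to 2 and G1 genes higher 0 to 1. The cause of these shifts was not tested.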

Other observations

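Within the untreated group, replicate 3 had the highest value of the 4 for 26 of the 36 mitosis genes and for 36.9% of all genes, and replicate 1 the lowest value for 25 of the 36 and for 44.1% of all genes. The per-array median of the centred mitosis values was 0.33 in untreated replicate 3 and 0.13 in untreated replicate 1, and both lay above all exposed arrays.

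The 6 probe sets of MKI67 agreed in direction at 48 h against untreated cells but not in size, with the 5 others from -2.0 to -0.68 against -0.69 for the brightest. At 48 h against 6 h the 5 others ran from -1.285 to 0.18, against -0.30 for the brightest. Only that with a mean of 7.53 was higher in sign.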
